A study of Mus musculus with 10 samples.

Results

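A set of 10 genes that store and release neutral lipid, Dgat1, Dgat2, Plin2, Plin3, Soat1, Pnpla2, Hilpda, Acsl1, Mgll and Lpl, was taken by symbol from the mouse RNA sequencing counts, and all of them were found among 55414 gene identifiers. Their transcripts were followed in macrophages separated by FACS into Eff+ and Eff- cells, for efferocytosis, the uptake of apoptotic cells. Wound macrophages came from skin wounds 3 days old on LysMCreER/mTmG mice that received tamoxifen for 6 days (3 Eff+ and 3 Eff- libraries). In these mice, Eff+ and Eff- alike, the lysozyme M locus drives an inducible Cre and Cre action turns the reporter of membrane tdTomato into membrane GFP. Cultured macrophages were wild-type bone marrow cells differentiated in GM-CSF over 7 days, and the labels list a 12 h treatment with apoptotic fibroblasts, which the design text calls labelled, for all of them (2 Eff+ and 2 Eff- libraries). The Eff- columns of the culture table carry the letters NOAC, so whether those cells had met apoptotic cells is unclear. Whether replicates came from different mice or dishes is unstated, so a p-value here reflects library-to-library spread alone, which may be technical. The labels give no age or sex of the mice.

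A cell stores fatty acids as triglyceride and cholesterol as cholesteryl ester in lipid droplets, which are coated by perilipins. Lipoprotein lipase (Lpl) frees fatty acids from lipoproteins, an acyl-CoA synthetase (Acsl1) activates them, and the diacylglycerol acyltransferases (Dgat1, Dgat2) make triglyceride in the last step of synthesis. Soat1 esterifies cholesterol, Plin2 and Plin3 coat droplets, and stored triglyceride is released by adipose triglyceride lipase (Pnpla2), which Hilpda inhibits, with monoglyceride lipase (Mgll) acting at the end of the chain. Macrophages that digest engulfed cells receive the lipids of those cells, and lipid-laden macrophages with many droplets are known as foam cells.

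Wound libraries held 39735437 to 57308823 counts and culture libraries 17622740 to 27261880. The culture libraries numbered 1 stood apart, with counts in 35649 (Eff+) and 44836 (Eff-) genes against 19649 (Eff+) and 18171 (Eff-) in those numbered 2. In the wound, Lyz2, the gene at the Cre locus, had 159484 (Eff+) and 345046 (Eff-) counts in the libraries numbered 2 and 160 to 413 in the other 4, so results are also given without those libraries. All 10 macrophage markers on the list used here had counts in every library. In the wound 1 was called higher (Cd14) and 4 lower (C1qa, C1qb, Mrc1, Adgre1) in Eff+. Without overlap between the groups, 8 of the 10 were lower and 1 higher in Eff+, where 36.8% of all tested genes did not overlap. Their median log2 fold change was -0.87. Their sum, with Cd14 in it, took 2.08 to 2.53% of counts in wound Eff+ and 1.87 to 2.03% in wound Eff- libraries. Of 12 neutrophil markers 9 rose in wound Eff+, and their sum took 1.76 to 1.97% of counts in Eff+ and 0.297 to 0.507% in Eff- libraries, with 0 to 1 of the 12 at 0 in an Eff- library. Of 8 adipocyte markers 2 were tested and 1 rose (Retn), and their sum was 0.000422 to 0.00126% in wound Eff+ and 0.000113 to 0.000248% in wound Eff- libraries. Adipoq had 4, 2 and 42 counts in wound Eff+ libraries 1, 2 and 3 and 8, 22 and 0 in wound Eff-. The adipocyte droplet coat gene Plin1 had 0, 0 and 8 in Eff+ and 0, 12 and 0 in Eff-. Cfd had 22, 6 and 396 in Eff+ and 0, 28 and 8 in Eff-, and Lep 0, 0 and 16 against 0, 0 and 0. No sebocyte marker was high enough to be tested in the wound, and Awat1 and Krt79 were at 0 in all 6 wound libraries. Fibroblast markers took 0.0652 to 0.224% of counts in wound Eff+ and 0.0237 to 0.136% in wound Eff-, and 2 of 8 rose (Acta2, Col6a3). Keratinocyte markers (Krt14 and Krt5 rose, 2 of 3 tested) reached at most 0.00225% in Eff+ and 0.000162% in Eff-, and muscle markers (Mylpf rose, 1 of 5 tested) 0.00457% in Eff+ and 0.00189% in Eff-. None of 7 dendritic cell markers was called in the wound. In culture no gene at all was called, but 6 of 6 tested dendritic cell markers had a negative log2 fold change (median -3.29). Of these, 4 were lower in Eff+ without overlap, as were 9.42% of all genes tested there. The sum of the 7 took 0.0103 to 0.0133% of counts in culture Eff+ and 0.0248 to 0.0792% in culture Eff- libraries. Of 8 neutrophil markers tested in culture, 7 had a negative and 1 a positive log2 fold change (median -1.72). Of these 8, 6 were lower in Eff+ without overlap. The neutrophil marker sum took 0.167 to 0.272% of counts in culture Eff+ and 0.139 to 0.302% in culture Eff- libraries. The part of these cells in the results below was not tested.

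In wound macrophages both triglyceride-forming enzymes and the lipase that opens triglyceride stores were higher in Eff+ cells. Dgat1 and Dgat2 each rose about 4-fold, by 2.00 and 2.11 on the log2 scale, and Pnpla2 rose 1.84-fold. None of the 10 genes was called lower, and Lpl had a log2 fold change of -0.93 that did not pass (adjusted p = 0.11, edgeR). In bulk libraries, fewer cells of a type and less RNA per cell cannot be told apart, here and below. Of all 14908 genes tested in the wound, 11.2% were called, 7.39% higher and 3.79% lower in Eff+ (edgeR quasi-likelihood test, Benjamini-Hochberg adjusted p under 0.05), and 3 of the 10 genes were called, all higher. Their median log2 fold change was 0.66, beside -0.03 over all genes tested. The groups did not overlap for 5 of the 10 (Dgat1, Dgat2, Plin2, Pnpla2 and Acsl1), all higher in Eff+, where 36.8% of all tested genes did not overlap and 18.7% were higher without overlap. DESeq2, run without the edgeR filter on low counts, called 6 of the 10 and 12.4% of 25893 genes with a p-value. That share is not over the same genes as the edgeR shares. DESeq2 kept its own default filtering, so some low-count genes may have had no adjusted p, here and in the DESeq2 shares below. Of the 14908 genes, edgeR with a replicate block called 20.0%, and 6 of the 10. Scaled to library totals, edgeR called 22.6% of the 14908, and 3 of the 10, namely Dgat1 and Dgat2 higher and Lpl lower. Scaling to library totals also turned the balance over all genes, to 714 higher and 2654 lower in Eff+ against 1101 higher and 565 lower with TMM scaling, and moved the median log2 fold change of all genes to -0.42. In cultured macrophages none of the 10 was called, nor was any of 14867 genes (0%, with 115 at an unadjusted p under 0.05). DESeq2, without the edgeR filter on low counts, called 1 of 46953 genes with a p-value in culture (0.00213%). There the groups did not overlap for Plin2 and Lpl, higher in Eff+, and for Dgat1, lower in Eff+, that is 3 of 10 genes where 20.7% of all tested genes did not overlap, 11.3% higher and 9.42% lower.

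**Figure D1:**
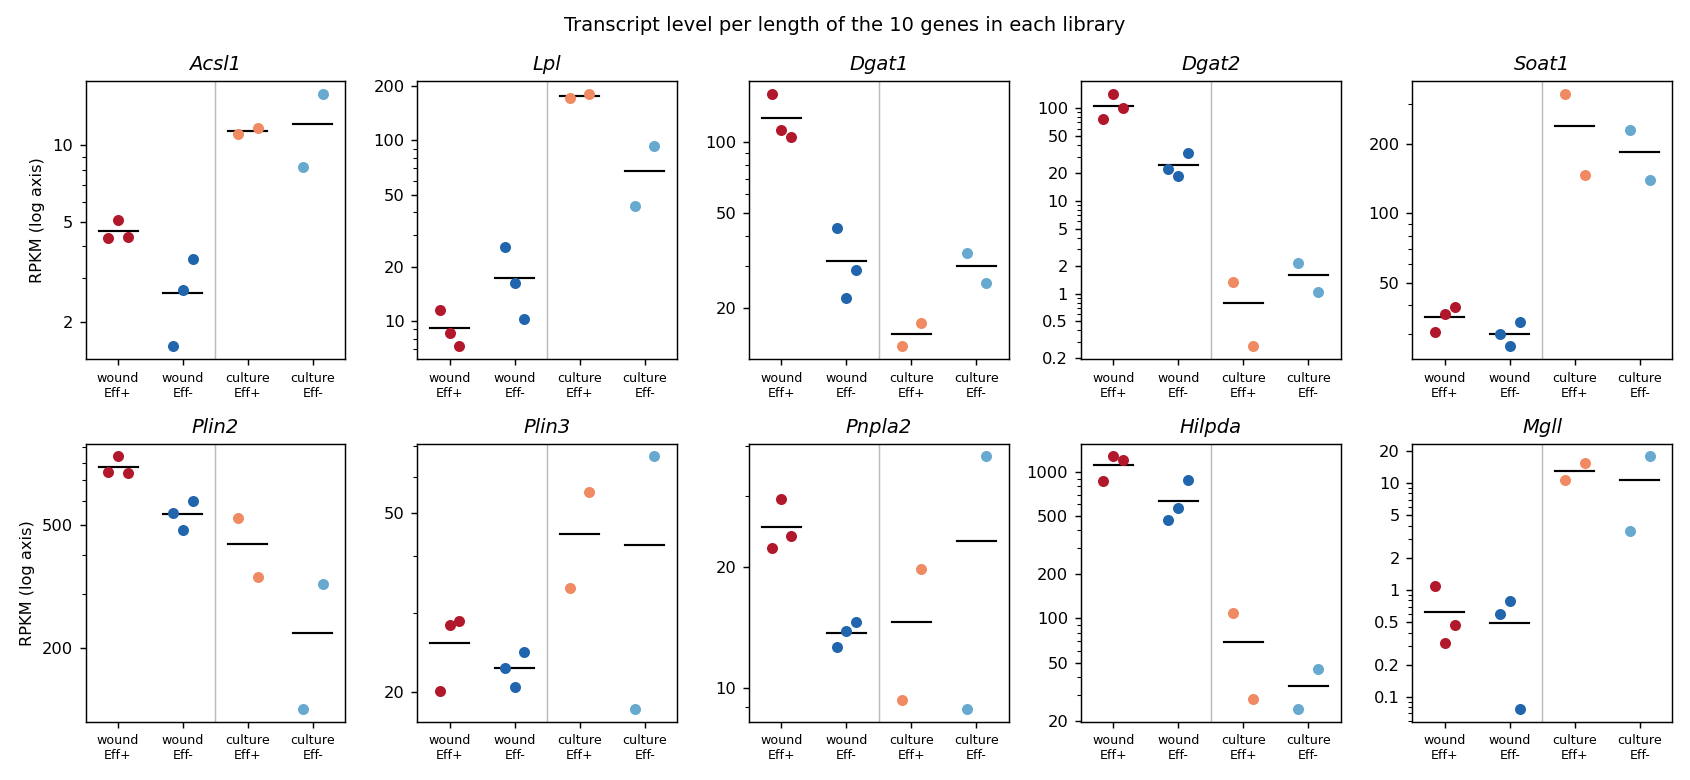
Level per length (RPKM, log axis, scaled within the wound or the culture table) of each of the 10 genes in every library, with points as libraries and bars as group means; wound and culture panels are parted by a grey line. Dgat1 and Dgat2 of the 3 wound Eff+ libraries lie above all wound Eff- libraries, Pnpla2 likewise, and Dgat2 in culture is at 0.269 to 2.15 RPKM.

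Dgat1 (ENSMUSG00000022555, GRCm39 chromosome 15, 76386215 to 76396153, minus strand) encodes an acyltransferase of the endoplasmic reticulum that belongs to the same protein family as Soat1. It had 488, 344 and 321 CPM (counts scaled to library size) in wound Eff+ libraries 1, 2 and 3, against 133, 67.1 and 88.2 CPM in wound Eff- libraries. Every Eff+ library was above every Eff- library. The log2 fold change was 2.00 (SE 0.29, adjusted p = 0.011, edgeR). In culture it was the other way round, with 41.9 and 52.6 CPM in Eff+ libraries 1 and 2 against 104 and 78.0 CPM in Eff- libraries. Again the groups did not overlap, but with Eff+ below Eff- (log2 fold change -0.95, SE 0.40, adjusted p = 1.00, edgeR).

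Dgat2 (ENSMUSG00000030747, chromosome 7, 98802865 to 98831926, minus strand) encodes the other enzyme of this step, unrelated in sequence to Dgat1. Wound Eff+ libraries had 232, 440 and 307 CPM, and wound Eff- libraries 68.6, 57.5 and 101 CPM. The groups were apart, the log2 fold change was 2.11 (SE 0.30, adjusted p = 0.011, edgeR), and the highest value was in Eff+ library 2. In culture Dgat2 was the lowest of the 10 genes, at 106 and 20 counts in Eff+ libraries and 148 and 62 counts in Eff- libraries. That is 4.08 and 0.83 CPM in Eff+ against 6.64 and 3.22 CPM in Eff-, so the groups overlapped (log2 fold change -1.0, SE 0.99, adjusted p = 1.00, edgeR). With culture libraries left out the change was -2.52 (without Eff+ library 1) to -0.11 (without Eff+ library 2), so its size is not settled by these libraries.

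The balance of the 2 enzymes within a library does not depend on how libraries are scaled. Per length, Dgat1 was 2.12, 0.79 and 1.05 times Dgat2 in wound Eff+ libraries, against 1.95, 1.18 and 0.88 times in wound Eff- libraries. The ranges overlap, and 3 libraries against 3 cannot show whether the ratio differs at a threshold of 0.05 (exact permutation test over libraries, two-sided p = 0.80, smallest possible 0.10). In culture the ratio was 10.4 and 63.9 in Eff+ libraries and 15.8 and 24.4 in Eff- libraries, so Dgat1 was above Dgat2 in all 4.

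Soat1 (ENSMUSG00000026600, chromosome 1, 156252095 to 156301901, minus strand), which makes cholesteryl ester, did not pass in the wound. It had 299, 358 and 384 CPM in Eff+ against 292, 258 and 330 CPM in Eff- libraries, overlapping ranges (log2 fold change 0.24, SE 0.18, adjusted p = 0.40, edgeR). The ratio of Soat1 to Dgat1 per length was therefore lower in wound Eff+, at 0.19, 0.32 and 0.37, against 0.69, 1.2 and 1.17 in Eff-, without overlap (exact permutation test, two-sided p = 0.10, the smallest that 3 against 3 allows). In culture Soat1 was the second highest of the 10 genes per length in both groups, at 3252 and 1434 CPM in Eff+ and 2255 and 1365 CPM in Eff-. The Soat1 to Dgat1 ratio there was 24.2 and 8.51 in Eff+ and 6.75 and 5.46 in Eff- (exact permutation test, two-sided p = 0.333, the smallest that 2 against 2 allows), above every wound library.

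**Figure D2:**
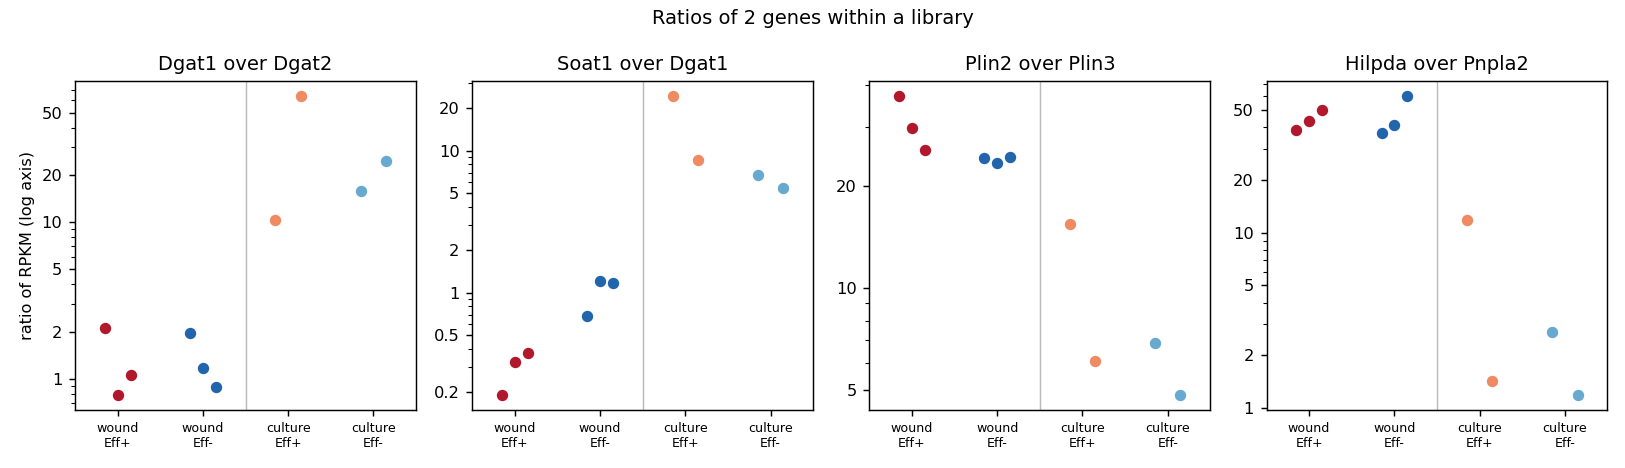
Ratio of the RPKM of 2 genes within each library (log axis), with wound libraries left and culture libraries right of the grey line and points as libraries. Soat1 over Dgat1 is 0.19 to 0.37 in wound Eff+ and 0.69 to 1.2 in wound Eff-, while Dgat1 over Dgat2 and Hilpda over Pnpla2 overlap between the 2 wound groups.

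Upstream of the acyltransferases, Lpl (ENSMUSG00000015568, chromosome 8, 69333143 to 69360100, plus strand) had the opposite sign to the rest in the wound. It was at 120, 90.3 and 75.9 CPM in Eff+ libraries against 270, 170 and 107 CPM in Eff- libraries. The groups overlapped, since Eff+ library 1 was above Eff- library 3, and the log2 fold change of -0.93 (SE 0.34, adjusted p = 0.11, edgeR) did not pass. Scaled to library totals alone it was -1.33 and passed (adjusted p = 0.030, edgeR). In culture Lpl was at 1790 and 1903 CPM in Eff+ against 455 and 971 CPM in Eff- libraries, higher in Eff+ without overlap (log2 fold change 1.37, SE 0.69, adjusted p = 1.00, edgeR).

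Acsl1 (ENSMUSG00000018796, chromosome 8) was at 45.4, 53.4 and 45.7 CPM in wound Eff+ against 16.9, 28.2 and 37.5 CPM in wound Eff- libraries. The groups did not overlap, but the log2 fold change of 0.81 (SE 0.28, adjusted p = 0.099, edgeR) did not pass. In culture it was at 116 and 122 CPM in Eff+ and 86.1 and 168 CPM in Eff-, where the Eff- libraries enclosed the Eff+ ones. Of its 10483 exon bases 1039 overlap Gm45244 on the other strand, which had 70 counts summed over wound Eff+ and 9 over wound Eff- libraries, and the wound counts were made without a strand option.

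The droplet coat gene Plin2 (ENSMUSG00000028494, chromosome 4, 86566623 to 86588297, minus strand) was among the 2 highest of the 10 genes per length in all 4 groups. It had 2626, 2942 and 2589 CPM in wound Eff+ against 1930, 1691 and 2106 CPM in wound Eff- libraries. Every Eff+ library was above every Eff- library, yet the log2 fold change of 0.51 (SE 0.18, adjusted p = 0.11, edgeR) did not pass. In culture Plin2 was at 1856 and 1188 CPM in Eff+ and 444 and 1128 CPM in Eff-, where Eff- library 1 was far below the rest (log2 fold change 0.95, SE 0.75, adjusted p = 1.00, edgeR). Within replicate number 1 the log2 ratio of Eff+ to Eff- was 2.06, and within number 2 it was 0.07. Plin3 (ENSMUSG00000024197, chromosome 17), a more widely expressed coat gene, was at 76.5, 107 and 109 CPM in wound Eff+ and 85.8, 78.0 and 93.3 CPM in wound Eff- (log2 fold change 0.19, SE 0.18, adjusted p = 0.54, edgeR). Per length, Plin2 was 25.6 to 37.0 times Plin3 in wound Eff+ and 23.4 to 24.3 times in wound Eff-, without overlap (exact permutation test, two-sided p = 0.10, the smallest possible). In culture the ratio was 6.09 to 15.5 in Eff+ and 4.83 to 6.88 in Eff-.

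On the release side, Pnpla2 (ENSMUSG00000025509, chromosome 7, 141035111 to 141040656, plus strand) had 67.3, 88.9 and 72.0 CPM in wound Eff+ against 38.2, 41.9 and 44.1 CPM in wound Eff- libraries. The groups were apart and the log2 fold change was 0.88 (SE 0.16, adjusted p = 0.020, edgeR). Scaled by library totals only, it was 0.48 and did not pass (adjusted p = 0.059, edgeR). Culture libraries followed their replicate numbers instead, with 28.2 and 59.8 CPM in Eff+ libraries 1 and 2 and 26.8 and 114 CPM in Eff- libraries 1 and 2 (log2 fold change -0.68, SE 0.81, adjusted p = 1.00, edgeR).

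Hilpda (ENSMUSG00000043421, chromosome 6, 29272487 to 29275445, plus strand), the inhibitor of this lipase and a known target of hypoxia-inducible factors, was the highest of the 10 genes per length in the wound. It had 948, 1405 and 1319 CPM in wound Eff+ and 515, 627 and 965 CPM in wound Eff- libraries. The lowest Eff+ library lay just under the highest Eff- library, and the log2 fold change of 0.80 (SE 0.28, adjusted p = 0.10, edgeR) did not pass. In culture, scaled separately, Hilpda was at 121 and 31.3 CPM in Eff+ and 26.6 and 49.6 CPM in Eff- libraries. The log2 ratio was 2.17 within replicate number 1 and -0.66 within number 2. Hilpda exceeded Pnpla2 per length 38.6, 43.3 and 50.1 times in wound Eff+ and 36.9, 40.9 and 59.9 times in wound Eff- libraries, which overlap. In culture it did so 11.8 and 1.43 times in Eff+ and 2.72 and 1.19 times in Eff-.

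Mgll (ENSMUSG00000033174, chromosome 6), which cleaves the last fatty acid, was the lowest of the 10 in the wound. The wound Eff+ libraries held 243, 76 and 111 Mgll counts and the wound Eff- libraries 152, 212 and 17 (numbers 1 to 3), with log2 ratios within replicate numbers of 0.77, -1.09 and 1.70. No direction can be read from values this scattered (log2 fold change 0.35, SE 0.80, adjusted p = 0.81, edgeR). In culture it was at 53.8 and 79.0 CPM in Eff+ and 18.0 and 90.3 CPM in Eff- libraries.

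**Figure D3:**
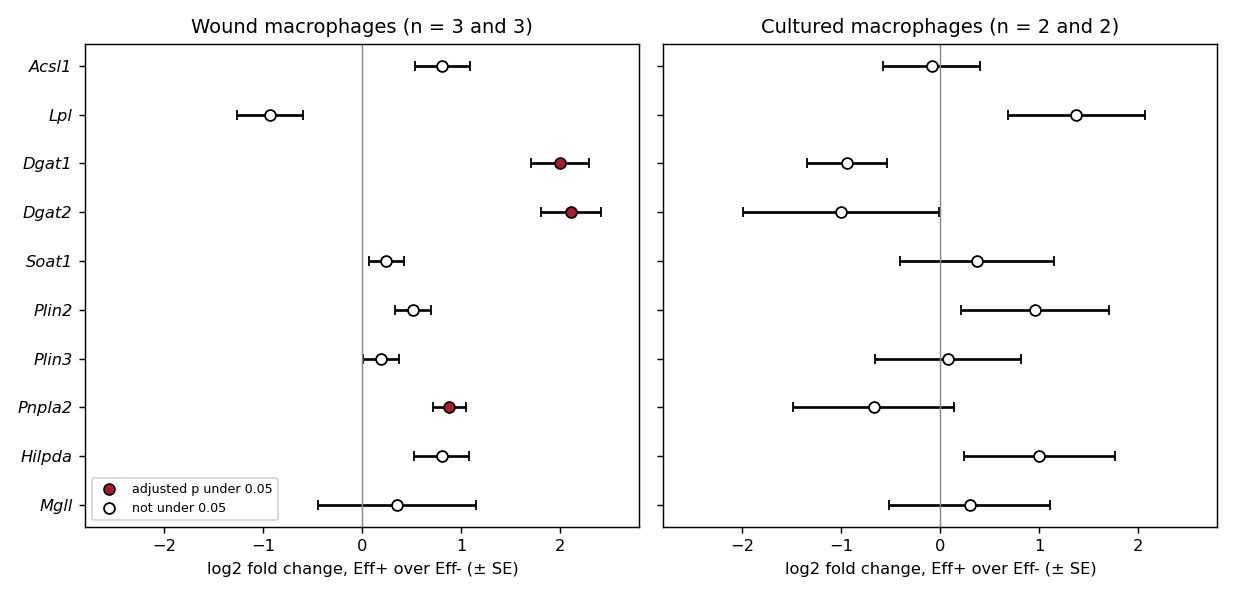
Log2 fold change of Eff+ over Eff- (points, with bars of ± 1 SE) of each gene, in wound macrophages on the left and cultured macrophages on the right; red points have an adjusted p under 0.05. Dgat1, Dgat2 and Pnpla2 pass in the wound at 2.00, 2.11 and 0.88, and no gene passes in culture.

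By level per length, wound Eff+ macrophages had Hilpda (1110 ± 220 RPKM, SD, n = 3) above Plin2 (774 ± 55.2), then Dgat1 (126 ± 29.7) and Dgat2 (105.9 ± 34.1), whose ranges overlapped, then Soat1 (35.5 ± 4.45). Below these stood Plin3 (25.7 ± 4.82) and Pnpla2 (25.2 ± 3.76), which overlapped, and then Lpl, Acsl1 and Mgll, each apart from the next. Wound Eff- macrophages kept Hilpda (637 ± 212) and Plin2 (544 ± 59.3) on top, here overlapping. In wound Eff-, Dgat1 (31.4 ± 11.0), Soat1 (30.0 ± 3.66), Dgat2 (24.6 ± 7.33), Plin3 (22.6 ± 2.02), Lpl (17.4 ± 7.83) and Pnpla2 (13.7 ± 0.99) formed a run in which each overlapped the next. Culture Eff+ macrophages had Plin2 (433 ± 134, n = 2) above Soat1 (239 ± 131) and Lpl (176 ± 7.64), of which Soat1 and Lpl overlapped. Hilpda (69.1 ± 57.5), Plin3 (44.8 ± 15.2), Dgat1 (15.5 ± 2.47), Pnpla2 (14.6 ± 7.41), Mgll (13.1 ± 3.5) and Acsl1 (11.4 ± 0.43) followed, and Dgat2 (0.80 ± 0.75) was last. Culture Eff- macrophages again had Plin2 (224 ± 138), Soat1 (185 ± 64.3) and Lpl (68.1 ± 34.9) on top and Dgat2 (1.6 ± 0.78) last. Wound and culture tables were scaled separately and the models differ in table, depth and cells, so level differences between them cannot be told apart from these and were not tested.

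All 3 wound calls were lost in 4 of the 9 fits that left libraries out, while the folds stayed of similar size. Without Eff+ library 2 the log2 fold changes were 2.07 for Dgat1, 1.83 for Dgat2 and 0.75 for Pnpla2 (adjusted p = 0.062, 0.062 and 0.092, edgeR), and no gene of the table was called (3260 had an unadjusted p under 0.05). Without Eff- library 2 they were 1.77, 1.92 and 0.86 (adjusted p = 0.052, 0.060 and 0.088). With both libraries numbered 2 left out they were 1.87, 1.67 and 0.76 (adjusted p = 0.21, 0.21 and 0.25), and without both numbered 3 they were 2.09, 2.46 and 1.01 (adjusted p = 0.080, 0.066 and 0.095). Pnpla2 also missed the threshold without Eff- library 1 (0.80, adjusted p = 0.076) and without both libraries numbered 1 (0.89, adjusted p = 0.051). Over all 9 fits, the lowest value was 1.77 for Dgat1, 1.67 for Dgat2 and 0.75 for Pnpla2. With the marker genes of other cell types removed from the table, they were 2.00, 2.11 and 0.88 and still called. That step changes library totals only, and whether cells of another type carry part of these transcripts was not tested.

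**Figure D4:**
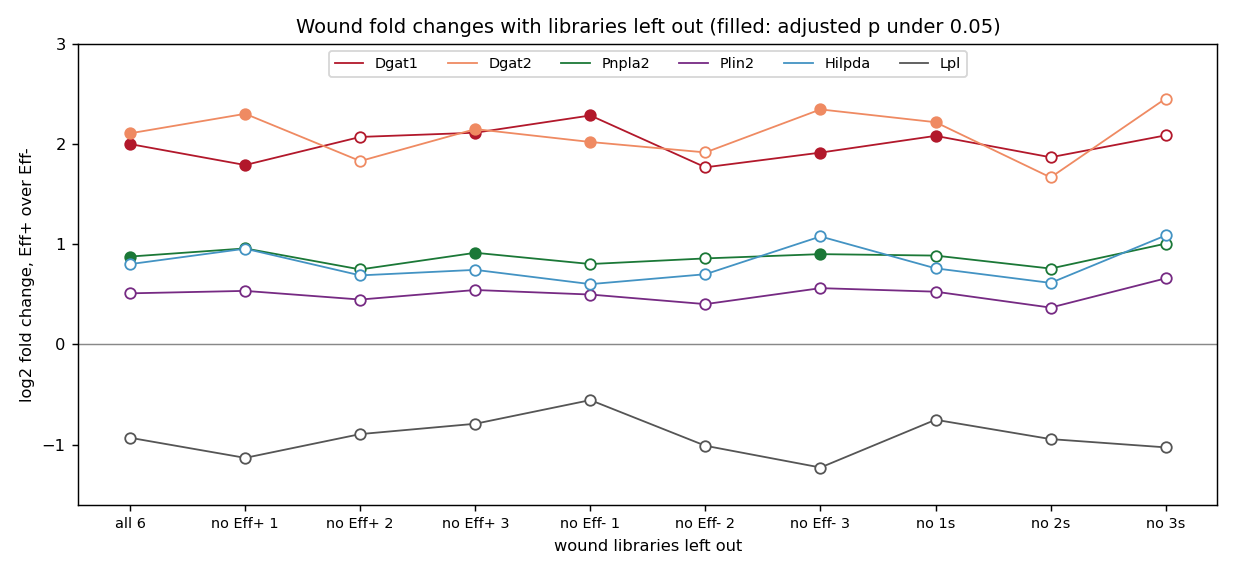
Log2 fold change of Eff+ over Eff- in the wound for 6 of the genes (lines) with all 6 libraries and with 1 library or both libraries of a replicate number left out; filled points have an adjusted p under 0.05. Dgat1 and Dgat2 stay between 1.67 and 2.46 throughout, while their points are open without Eff+ library 2, without Eff- library 2 and without both libraries numbered 2 or 3.

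The difference between the models was tested in 1 fit over all 10 libraries. It was 2.97 for Dgat1 on the log2 scale (SE 0.52, unadjusted p = 0.00014, adjusted p = 0.11, edgeR), 3.12 for Dgat2 (SE 0.83, adjusted p = 0.24) and -2.28 for Lpl (SE 0.66, adjusted p = 0.27), wound minus culture. No gene of 20270 passed that test (0%, with 2222 at an unadjusted p under 0.05), and the median difference over all genes tested was 0.32. Dgat1 was higher in the wound and lower in culture without overlap in either, as were 2.83% of the 13091 genes tested in both. DESeq2 and edgeR with a replicate block each called Dgat1, Dgat2 and Lpl, among 606 genes (1.28%) for DESeq2 and 441 genes (2.18%) for the block, as did edgeR with no filter on low counts (1.09%) and edgeR without culture Eff- library 2, among 2009 genes (8.50%). With libraries left out, the difference was 2.36 (without culture Eff+ library 2) to 4.67 (without culture Eff+ library 1) for Dgat2 and -2.98 to -1.87 for Lpl. The other 7 genes had adjusted p of 0.46 to 1.00 (edgeR).

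Promoter windows from RefSeq (GRCm38.p6, 250 bases before to 50 after a transcript start) were found for 7 of the 10 genes, in 10 windows. The 3 shown belong to the lipase that rose and to the 2 genes of highest level per length in the wound. Exact matches were sought on both strands for ACGTG (the core of the hypoxia response element), AGGTCA (a nuclear receptor half-site), DR1 (a direct repeat of that half-site with 1 base between, bound by PPAR and RXR) and TGACTCA (AP-1). Among 32851 windows, 19.6% held ACGTG, 16.3% AGGTCA, 0.0396% DR1 and 5.2% TGACTCA. Capitals below mark the matches, each sequence runs 5′ to 3′ on the strand of its gene, and the last base before the start is numbered -1.
Pnpla2 (chr7:141454938-141455187, plus strand): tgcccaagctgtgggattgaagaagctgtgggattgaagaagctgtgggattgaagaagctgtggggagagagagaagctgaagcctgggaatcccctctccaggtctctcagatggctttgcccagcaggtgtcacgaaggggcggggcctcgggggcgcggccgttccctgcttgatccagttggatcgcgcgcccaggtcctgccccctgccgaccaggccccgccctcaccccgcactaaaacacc
Hilpda, the second of its 2 windows (chr6:29272376-29272625, plus strand): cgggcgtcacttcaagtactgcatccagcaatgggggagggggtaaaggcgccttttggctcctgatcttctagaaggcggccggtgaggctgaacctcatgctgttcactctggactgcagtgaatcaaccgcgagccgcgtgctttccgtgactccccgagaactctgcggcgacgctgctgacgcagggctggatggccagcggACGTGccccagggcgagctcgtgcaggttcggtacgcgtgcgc
Plin2 (chr4:86670058-86670309, minus strand): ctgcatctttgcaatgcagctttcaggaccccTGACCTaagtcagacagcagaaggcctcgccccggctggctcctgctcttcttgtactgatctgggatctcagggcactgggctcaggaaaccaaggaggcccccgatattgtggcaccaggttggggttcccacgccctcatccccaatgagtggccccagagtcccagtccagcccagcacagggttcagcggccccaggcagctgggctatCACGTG
The Pnpla2 window held none of the 4 motifs. The Hilpda window held ACGTG with its first base at -43, and its other window held none of the 4. In Plin2, ACGTG was matched on both strands where CACGTG crosses the transcript start, and AGGTCA on the reverse strand with its leftmost base at -218. Mgll held ACGTG in both of its windows, and the windows of Plin3, Soat1 and Acsl1 held none. A match says only that these letters are present.

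Around these 10 genes, 7 lists of other lipid genes (52 genes, 51 found, 41 tested in the wound) gave 4 called higher and 3 lower in wound Eff+, 7 of 41 where 11.2% of all tested genes were called, 7.39% higher and 3.79% lower. Their median log2 fold change was -0.16, beside -0.03 over all genes. Among 10 tested genes of glycerolipid synthesis 1 rose, Gpat3, which catalyses the first acylation of glycerol-3-phosphate. Gpat3 had 183, 256 and 263 CPM in wound Eff+ against 82.7, 63.0 and 124 CPM in wound Eff- libraries (log2 fold change 1.38, SE 0.28, adjusted p = 0.023, edgeR). Of its 3502 exon bases 1052 overlap 4930458D05Rik on the other strand, which had 203 counts summed over wound Eff+ and 69 over wound Eff- libraries, and 259 overlap Gm42987 on the same strand. Gpat3 was nearly absent from culture, at 24 and 19 counts in Eff+ and 56 and 25 counts in Eff- libraries.

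Of 7 tested genes on the lipolysis and ester list, 2 rose and 1 fell. G0s2, a second protein inhibitor of the Pnpla2 lipase and a gene also abundant in neutrophils, had 2294, 1563 and 1046 CPM in wound Eff+ against 428, 121 and 238 CPM in wound Eff- libraries. That was the largest change among the 41 tested lipid genes that were called (log2 fold change 2.64, SE 0.49, adjusted p = 0.019, edgeR), beside the higher neutrophil marker sum given above. The G0s2 to Pnpla2 ratio per length was 50.4 to 118 in wound Eff+ and 9.97 to 38.9 in wound Eff- libraries, without overlap (exact permutation test, two-sided p = 0.10, the smallest possible). In culture G0s2 had 13 and 0 counts in Eff+ and 10 and 7 in Eff- libraries, where 0 counts allow up to 0.125 CPM (3 counts, counting error only). Soat2, an acyltransferase that makes rather than splits cholesteryl ester, rose by 1.84 (SE 0.29, adjusted p = 0.012, edgeR), at 15.5 to 23.2 CPM in wound Eff+ and 3.75 to 6.60 CPM in wound Eff-. Nceh1, which hydrolyses cholesteryl ester, fell by 0.65 (SE 0.16, adjusted p = 0.043, edgeR), at 62.1 to 81.0 CPM in Eff+ and 105 to 120 CPM in Eff-.

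Of 9 tested genes of fatty acid uptake and binding, Slc27a4, a fatty acid transport protein with acyl-CoA synthetase activity, rose by 1.59 (SE 0.24, adjusted p = 0.012, edgeR), with 70.0, 87.8 and 76.6 CPM in wound Eff+ and 33.1, 17.7 and 26.9 CPM in wound Eff-. Lmf1, which matures lipoprotein lipase, fell by 0.86 (SE 0.21, adjusted p = 0.042, edgeR), at 7.63 to 10.1 CPM in wound Eff+ and 15.02 to 17.94 CPM in wound Eff- libraries. Among 4 tested genes of droplet assembly and coat, Bscl2, which encodes seipin of the droplet assembly site, fell by 0.78 (SE 0.17, adjusted p = 0.028, edgeR), with 33.1 to 43.1 CPM in Eff+ and 58.0 to 71.8 CPM in Eff-. Of its 5897 exon bases 398 overlap Gng3 on the other strand, which had 23 counts summed over wound Eff+ and 25 over wound Eff- libraries. None of 3 tested fatty acid activation genes, 6 fatty acid synthesis and desaturation genes and 2 lipid-sensing receptors was called (smallest adjusted p among them 0.11 for Ppard, edgeR). No gene of the 7 lists was called in culture, where 38 were tested. Without Eff+ library 2, or without both libraries numbered 2 or 3, none of the 7 wound calls remained, and without Eff- library 2 there was 1 call among the 41 (Slc27a4). Lmf1 and Nceh1 passed in 0 of the 9 fits that left libraries out (lowest adjusted p = 0.062 for Lmf1 and 0.076 for Nceh1, edgeR), so leaving out any library ended both calls. Bscl2 passed in 1 of the 9, Gpat3 in 2, G0s2 in 4, Soat2 in 5 and Slc27a4 in 6, and all 7 genes kept their sign in every such fit.

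**Figure D5:**
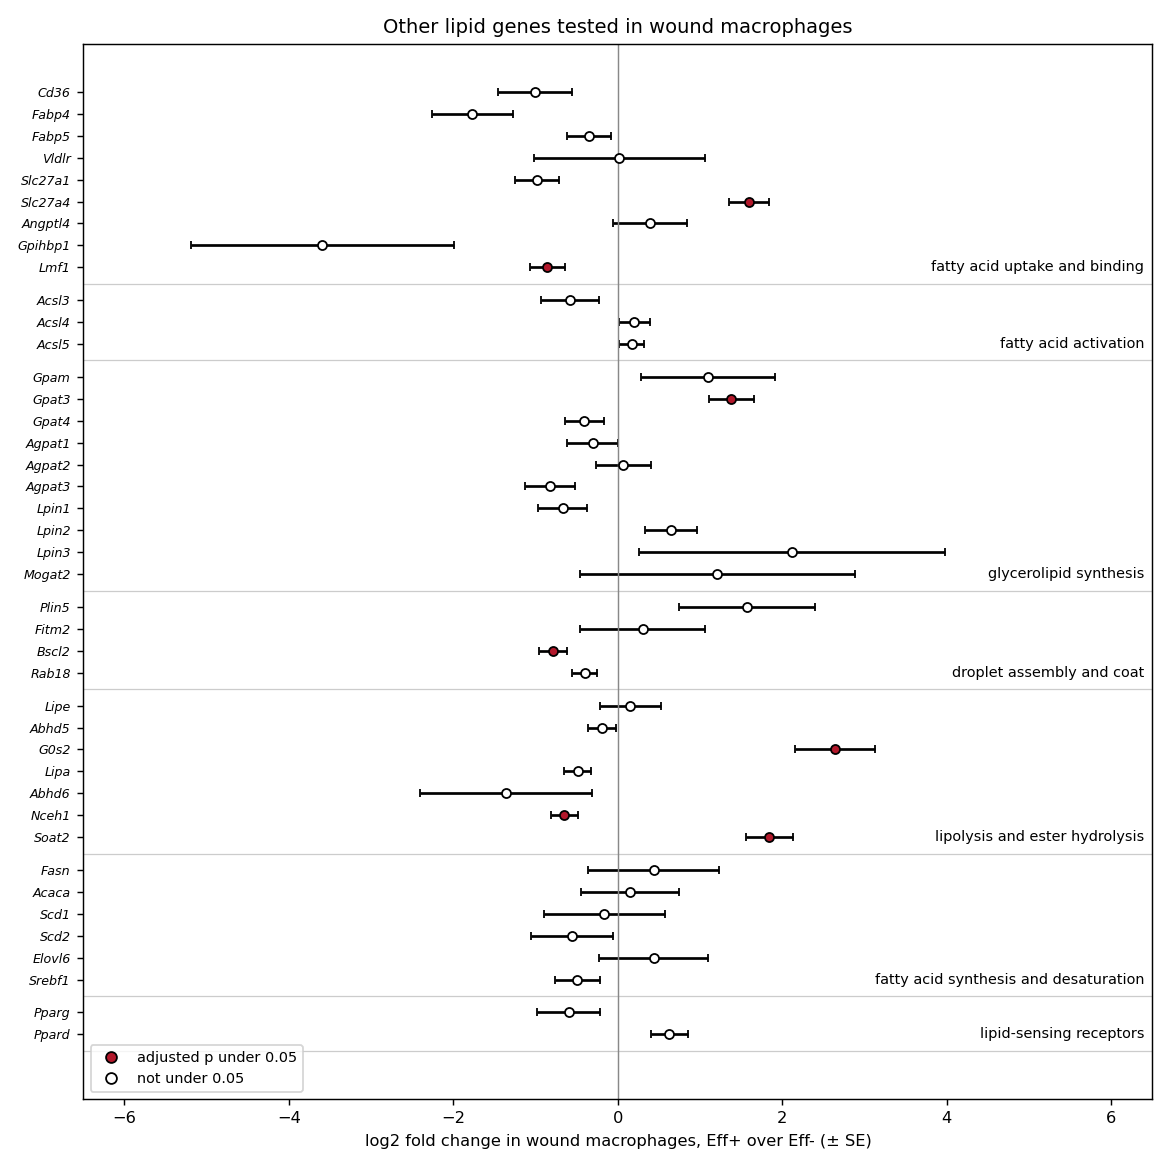
Log2 fold change of Eff+ over Eff- in wound macrophages (points, with bars of ± 1 SE) for the 41 tested genes of 7 lipid lists, grouped by role; red points have an adjusted p under 0.05. The 7 called genes are Slc27a4, Gpat3, G0s2 and Soat2 on the higher side and Lmf1, Bscl2 and Nceh1 on the lower side, between -0.86 and 2.64.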

How the data were processed

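The deposited tables hold raw counts per gene for the wound (6 libraries) and the culture (4 libraries), made from polyA RNA. Per the file headers, the authors counted the wound reads with featureCounts 1.6.0 at default settings, with no strand option, on GRCm39 with Ensembl release 106. The submitters' processing notes name Trimmomatic 0.39. The sources used here give neither the aligner nor the culture counting command. The culture table has 4 columns that matched no sample and were not used. Of 55414 identifiers 52081 had a symbol, holding 99.91% of counts. Each table was fitted with edgeR 4.0.16 (R 4.3.3; TMM scaling, filterByExpr, quasi-likelihood test, Benjamini-Hochberg adjustment over all genes tested), and the difference between models in 1 fit over 10 libraries. Standard errors were derived from the fold change and its F statistic. CPM use TMM-scaled totals within a table, and RPKM divide these by the exon length in the deposited table. The fits were also run on simulated counts with the same spread for every gene, which cannot show how they perform at the spread of these libraries. All 10 genes are described, and other lipid genes are named where called. The genes and lists were chosen with earlier results of these data known. Alternatives were other scalings, DESeq2 1.42.0, no filter, a replicate block, an adjusted p threshold of 0.1 and left-out libraries.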

Additional observations from a re-analysis of the deposited data

Results flagged for a closer look

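Dgat1 stood out because its Eff+ and Eff- libraries did not overlap in either model and lay in opposite order, higher in Eff+ in the wound and lower in Eff+ in culture. Of the 13091 genes tested in both models, 371 (2.83%) had this pattern. For Dgat1 the wound minus culture difference was 2.97 on the log2 scale (SE 0.52, adjusted p = 0.11, edgeR), which did not pass. It was 2.71 to 3.28 over the 10 fits that left libraries out. Gpat3 stood out for the same reason, with a difference of 2.55 (SE 0.56, adjusted p = 0.17, edgeR), at 24 and 19 counts in culture Eff+ and 56 and 25 counts in culture Eff- libraries.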

How the results depend on the processing

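In the wound, 1666 genes were called with TMM (1101 higher, 565 lower), 3368 with library totals only (714 higher, 2654 lower, median of all genes -0.42 against -0.03), 3216 with DESeq2, 2985 with the replicate block, 3040 at an adjusted p under 0.1 0 to 1347 with 1 library left out, and 751, 0 and 0 without both libraries numbered 1, 2 or 3. Of the 10 genes 3 were called, 6 with DESeq2 (adding Plin2, Hilpda and Acsl1), 6 with the replicate block (adding Hilpda, Acsl1 and Lpl) and 0 to 3 with libraries left out. Of the other lipid genes 7 were called, 13 with library totals and 0 to 6 with libraries left out. Library totals turned Plin3 to -0.20, Soat1 to -0.14 and Mgll to -0.054, and Mgll was -0.31 to 0.86 with 1 library left out and -0.15 without both numbered 1. In culture 0 genes were called, 1 with DESeq2, 2 without a filter, 48 with the replicate block and 0 to 27 with libraries left out, 0 to 1 of them other lipid genes. Acsl1 turned to 0.074 without a filter. Fits with 1 culture library left out gave -0.54 to 1.58 for Plin3, -0.30 to 1.00 for Soat1 and -1.34 to 1.01 for Pnpla2. They gave -0.24 to 1.80 for Hilpda, -0.46 to 0.76 for Acsl1 and -0.41 to 2.17 for Mgll. Without both culture libraries numbered 1 no fit was run. The log2 ratio of the 2 remaining libraries was -0.26 for Plin3, -0.66 for Hilpda and -0.19 for Mgll. For the difference between models, 0 genes were called, 606 with DESeq2, 517 without a filter, 441 with the replicate block and 0 to 2009 with libraries left out. Of the 10 genes, DESeq2, no filter and the block called 3 each and left-out libraries 0 to 3. Of the other lipid genes they called 3 with DESeq2, 4 without a filter, 2 with the block and 0 to 11 with libraries left out. Reversed differences were Plin3 (-0.30 with library totals, -0.13 with the block), Soat1 (0.030 with relative log expression scaling, 0.012 with upper quartile scaling, 0.029 with DESeq2), Hilpda (0.085 with the block) and Mgll (-0.41 with library totals, -0.052 with the block). Left-out libraries gave differences of -1.30 to 0.062 for Plin2, -1.14 to 0.75 for Plin3, -0.63 to 0.57 for Soat1, -0.88 to 1.09 for Hilpda and -1.56 to 0.78 for Mgll. The causes were not tested. Deviations of same-numbered libraries correlated at 0.25, -0.01 and 0.13 in the wound and 0.74 in culture, and no label pairs them. With 2 culture libraries a group, left-out fits assume that the lone library varies like the others.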

Other observations

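A list of 10 hypoxia response genes was set beside Hilpda. In the wound 0 of 10 were called by edgeR, where 11.2% of all 14908 tested genes were called. Of the 10, 8 had a positive and 2 a negative log2 fold change, and the median was 0.65, beside -0.03 over all genes. Ankrd37 was nearest to the threshold at 1.27 (SE 0.35, adjusted p = 0.054, edgeR), and Car9, a carbonic anhydrase, had the opposite sign at -1.69 (SE 0.60, adjusted p = 0.11, edgeR).

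Over 7723 genes and 10 libraries, the genes whose log2 CPM, centred within each model, lay nearest to Plin2 were Arhgap24, Atp6v0a1 and Atp6v0e, with root mean square differences of 0.191, 0.197 and 0.227, beside a median of 0.619 over all genes. Nearest to Hilpda were Plk2, Dcun1d3 and Card19, at 0.324, 0.330 and 0.341, beside a median of 0.784. A gene that did not vary within either model would lie 0.522 from Plin2 and 0.670 from Hilpda. In culture, Plin2 and its named neighbours were all lowest in Eff- library 1. Hilpda and its named neighbours were all highest there in Eff+ library 1. How far the likeness rests on these libraries was not tested.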
